A study of Mus musculus with 12 samples.

Results

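The genes described here are 6 digestive genes of the exocrine pancreas, Cpa1, Clps, Ctrb1, Cpb1, Prss2 and Pnlip, and the insulin gene Ins2, 7 of the 20358 genes measured in mouse visceral fat. They were chosen because of their values on a single array, replicate 2 of the TFA diet (TFA replicate 2), so their excess on that array is a description and was not tested. On TFA replicate 2 the 6 digestive genes had levels between 10.55 and 12.46 on the log2 scale. This was at least 15.3-fold (Pnlip) to 57.2-fold (Ctrb1) higher than the mean log2 level of the other 11 arrays. On those arrays each of them lay within dim signal, so only a bound can be given. It holds for that mean and not for each array. Ins2 had a value of 7.43, which could not be separated from dim signal on the same array. The name digestive enzymes is thus used for the 6 genes above dim signal there, among them Clps, which encodes a cofactor of the lipase.

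The arrays came from 4 diets given to male C57Bl/6J mice (an inbred strain), which were 20 weeks old at sampling, with 3 arrays per diet. The ASP+MSG+TFA diet combined aspartame (ASP, a dipeptide sweetener) at 0.25 g/L and monosodium glutamate (MSG, a flavour enhancer) at 0.75 g/L in the drinking water with a trans fat chow, the ASP+TFA and MSG+TFA diets held 1 of these additives at the same dose, and the TFA diet held neither. All diets shared the chow, which held 20% w/w vegetable shortening and 8.68% w/w trans fat. Breeding females had the same diet from 6 weeks of age, starting 3 weeks ahead of mating, and weaning was at 4 weeks. Each diet had 15 mice and each array took RNA pooled from several of them, so 1 array is 1 pool and no value belongs to a single animal. The tissue joined the epididymal fat pads and the fat of the reproductive organs with omental-mesenteric fat from around the gut, a depot that lies beside the pancreas. Adipocyte genes marked every array. Adipoq, the gene of the fat cell hormone adiponectin, was at 13.12 on TFA replicate 2 and between 12.89 and 13.42 on the other 11 arrays, and the median of 15 adipocyte genes was 12.80 and between 12.60 and 13.05.

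Acinar cells of the pancreas make digestive enzymes in very large amounts, store most of them as inactive zymogens in granules, and release them into ducts that drain to the duodenum. Prss2 encodes an anionic trypsinogen, and trypsin cuts and activates the other zymogens. Ctrb1 encodes chymotrypsinogen B, and Cpa1 and Cpb1 encode carboxypeptidases that remove residues from the carboxyl end of peptides, Cpb1 those that are basic. Pnlip encodes pancreatic lipase, which splits dietary triglyceride, and Clps encodes colipase, the small cofactor that anchors the lipase on fat droplets covered by bile salts. Ins2 is one of a pair of mouse insulin genes and belongs to the beta cells of the islets, the endocrine part of the same organ. Transcription of acinar genes is driven by PTF1, a complex of PTF1A, an E protein and RBPJL (or RBPJ) that binds an E-box together with a TC-box.

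The promoters of the digestive genes are shown because these genes stood high together. RefSeq promoter entries of assembly GRCm38.p6 matched 5 of the 7 genes, and the 250 bases before each gene start are given 5′ to 3′ on the strand of the gene. They are Prss2 at chr6:41521526-41521775 (plus strand), Cpa1 at chr6:30638968-30639217 (plus strand), Ctrb1 at chr8:111691011-111691260 (minus strand), Cpb1 at chr3:20275734-20275983 (minus strand) and Pnlip at chr19:58670115-58670364 (plus strand). Clps lies on chromosome 17 (28558210 to 28560766) and Ins2 on chromosome 7 (142678656 to 142679726). Capitals mark each match, on either strand, to 3 short motifs. The E-box of PTF1 was searched as the letters CACCTG. The TC-box of the same complex was searched as the letters TTTCCC. The TATA box, a general core promoter element, was searched as the letters TATAAA, and no matches overlapped.
Prss2: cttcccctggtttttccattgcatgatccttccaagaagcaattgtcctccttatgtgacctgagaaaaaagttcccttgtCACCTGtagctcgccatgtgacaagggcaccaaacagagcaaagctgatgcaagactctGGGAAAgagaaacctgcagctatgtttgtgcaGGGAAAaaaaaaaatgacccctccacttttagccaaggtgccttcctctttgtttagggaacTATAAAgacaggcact
Cpa1: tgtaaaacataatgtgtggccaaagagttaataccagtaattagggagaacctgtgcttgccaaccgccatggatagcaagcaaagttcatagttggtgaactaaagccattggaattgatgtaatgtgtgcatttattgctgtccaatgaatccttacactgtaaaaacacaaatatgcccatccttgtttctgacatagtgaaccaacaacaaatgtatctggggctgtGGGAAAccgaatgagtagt
Ctrb1: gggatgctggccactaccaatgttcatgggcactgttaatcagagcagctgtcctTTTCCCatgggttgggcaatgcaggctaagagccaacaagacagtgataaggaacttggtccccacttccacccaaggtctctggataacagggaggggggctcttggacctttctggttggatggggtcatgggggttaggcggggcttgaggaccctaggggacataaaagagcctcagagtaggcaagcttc
Cpb1: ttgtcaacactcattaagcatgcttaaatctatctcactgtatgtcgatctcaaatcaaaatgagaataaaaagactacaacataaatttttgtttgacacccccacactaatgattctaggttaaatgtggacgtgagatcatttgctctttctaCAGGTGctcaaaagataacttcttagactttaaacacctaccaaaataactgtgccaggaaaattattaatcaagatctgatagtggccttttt
Pnlip: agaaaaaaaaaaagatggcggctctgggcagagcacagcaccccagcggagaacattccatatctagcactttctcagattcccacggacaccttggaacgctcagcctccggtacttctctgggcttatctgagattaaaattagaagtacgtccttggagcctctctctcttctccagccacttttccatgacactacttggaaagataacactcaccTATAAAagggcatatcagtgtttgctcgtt
The E-box letters occurred in Prss2 and Cpb1, and in 17.2% of the 32851 promoter windows of this length. The TC-box letters occurred in Prss2, Cpa1 and Ctrb1 (21.9% of windows), and the TATA letters in Prss2 and Pnlip (12.4%). Prss2 alone among the 5 held both PTF1 boxes, with the E-box at bases -169 to -164 and TC-boxes at -110 to -105 and -78 to -73 from the gene start, a combination present in 3.61% of windows. A match of these letters is a description of the window and not a bound site.

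Each gene was read as the median over its probe sets, in log2 intensity, and most probe sets cover a single exon. To judge how low a value can be read, 1177 genes of olfactory and vomeronasal receptors, the sensors of odours and pheromones with little use in fat, gave the dim signal of each array. Their median was 6.60 on TFA replicate 2 and 6.40 to 6.76 on TFA replicate 1 and MSG+TFA replicates 1 and 2, and these 4 arrays are called raised below. On the other 8 arrays it lay between 5.44 and 5.66. The raised arrays also had a narrower spread of all genes, with interquartile ranges of 2.19 to 2.39 against 2.95 to 3.12. The 90th percentile of the receptor genes on the same array (7.48 on TFA replicate 2) was taken as the limit of dim signal.

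Both genes of fat digestion were high on TFA replicate 2. Clps had a log2 value of 12.28 there, and between 5.56 and 6.43 (median 5.85) on the other 11 arrays. The lipase gene Pnlip had 10.55 on TFA replicate 2, and between 4.62 and 5.84 (median 4.80) on the other 11 arrays. No array overlapped with TFA replicate 2 for either gene, and the highest of the others was MSG+TFA replicate 2 for Clps and TFA replicate 1 for Pnlip, both raised arrays.

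The endopeptidase genes followed the same order. Ctrb1 reached 12.46 on TFA replicate 2, the highest value among the 7 genes, and lay between 5.66 and 6.78 (median 6.19) on the other 11 arrays. Prss2 had 11.46 on TFA replicate 2, and between 4.85 and 6.57 (median 5.02) on the other 11 arrays. For Prss2 the other 3 raised arrays (6.31 to 6.57) stood apart from the 8 arrays that were not raised (4.85 to 5.33). Trypsin genes are near copies of each other, so the trypsin probe sets may share target, and the part of Prss2 in its own signal is uncertain.

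The carboxypeptidase genes were likewise bright on 1 array. Cpa1 had 12.39 on TFA replicate 2. It had 5.87, 5.74 and 5.59 in ASP+MSG+TFA replicates 1 to 3, 5.67, 5.42 and 5.76 in ASP+TFA, 6.12, 6.37 and 5.52 in MSG+TFA, and 6.24 and 5.62 in TFA replicates 1 and 3. TFA replicate 2 therefore stood 6.01 log2 units above the next array, while the other 11 arrays spanned less than 1 unit. Cpb1 had 11.87 on TFA replicate 2, and between 5.04 and 6.52 (median 5.64) on the other 11 arrays.

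Ins2 behaved differently. It had 7.43 on TFA replicate 2, 6.19, 6.08 and 5.97 in ASP+MSG+TFA replicates 1 to 3, 6.03, 5.85 and 6.28 in ASP+TFA, 6.84, 6.94 and 6.34 in MSG+TFA, and 7.03 and 6.62 in TFA replicates 1 and 3. TFA replicate 2 was the highest array by 0.40 log2 units, and the next 3 were the other raised arrays. Measured from the receptor median of the same array, Ins2 lay at 0.83 on TFA replicate 2 and between 0.27 and 0.96 on the others, so these groups overlapped. The gene value of Ins2 was above the limit of dim signal on 2 of the 11 other arrays (TFA replicate 3 and ASP+MSG+TFA replicate 1) and below it on TFA replicate 2, so no fold change is given for TFA replicate 2.

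**Figure D1:**
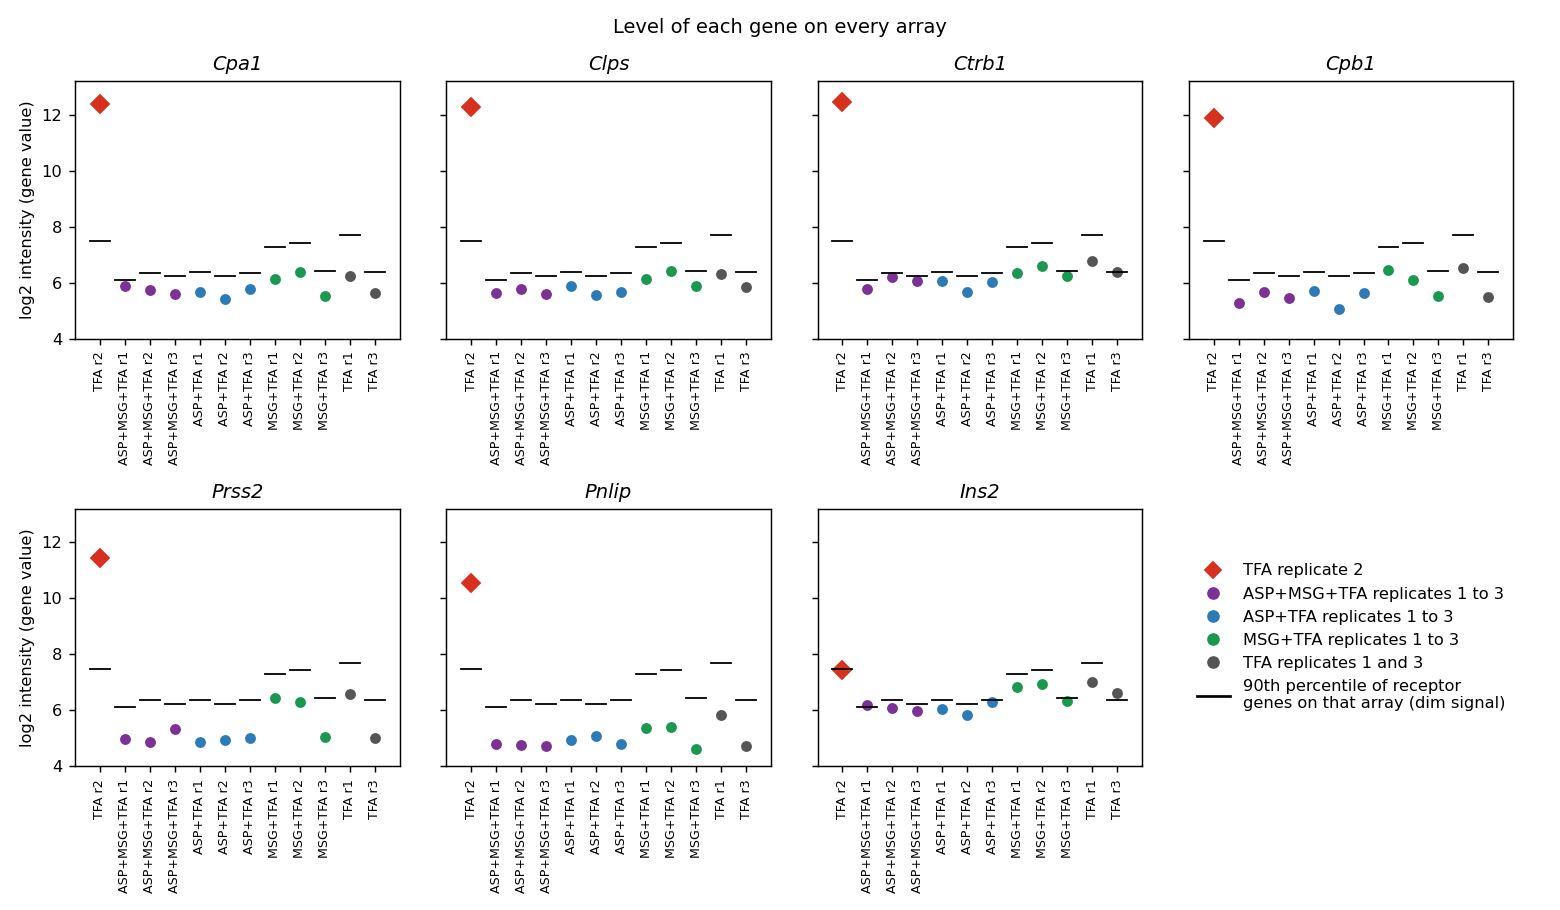
Log2 intensity of each of the 7 genes (y axis) on each of the 12 arrays (x axis, r is the replicate number), with TFA replicate 2 as a red diamond at the left, the other arrays as circles coloured by diet, and a black bar at the 90th percentile of receptor genes on the same array. The 6 digestive genes lie between 10.55 and 12.46 on TFA replicate 2 and below the bar on every other array, while Ins2 lies at 7.43 against a bar of 7.48 on TFA replicate 2.

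As a group the 6 digestive genes had a median of 12.08 on TFA replicate 2, and of 5.24 to 6.42 on the other 11 arrays. All 6 were above the limit of dim signal on TFA replicate 2, and 0 of their 66 values on the other arrays were. The fold change over the other arrays is therefore a lower bound. Against the mean of the higher of the value and the limit on each of the 11 arrays, expression on TFA replicate 2 was at least 57.2-fold higher for Ctrb1, 54.4-fold for Cpa1, 50.7-fold for Clps, 38.0-fold for Cpb1, 28.5-fold for Prss2 and 15.3-fold for Pnlip. The enzyme median on the other arrays followed the dim signal, at 6.24 to 6.42 on the 3 other raised arrays and 5.24 to 5.70 on the 8 arrays that were not raised. In pooled tissue RNA, fewer cells of a type and less RNA per cell cannot be told apart.

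The excess was present in most single probe sets of the digestive genes. The 6 digestive genes were read by 50 probe sets, and TFA replicate 2 was the highest array in 49 of them, by over 2 log2 units in 48. Every probe set of Cpa1 (10), Clps (3), Ctrb1 (7), Cpb1 (11) and Prss2 (5) was higher by over 2 units, with gaps of 2.57 to 7.01 in Cpa1, 3.18 to 6.27 in Clps, 3.00 to 6.94 in Ctrb1, 3.89 to 7.08 in Cpb1 and 2.72 to 7.32 in Prss2. Pnlip was the least even gene. Of its 14 probe sets, 1 was at 4.85 on TFA replicate 2, within the range of the other 11 arrays (4.29 to 4.97), and another at 7.31 (5.11 to 6.33), while its brightest reached 13.37 (5.22 to 6.99). In Ins2, TFA replicate 2 was the highest array in 2 of 5 probe sets, with gaps of -1.01 to 0.40. Its 2 brightest probe sets had 8.53 and 8.28 on TFA replicate 2, above the limit of 7.48, and 7.56 to 8.47 and 7.42 to 8.68 on the other arrays.

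**Figure D2:**
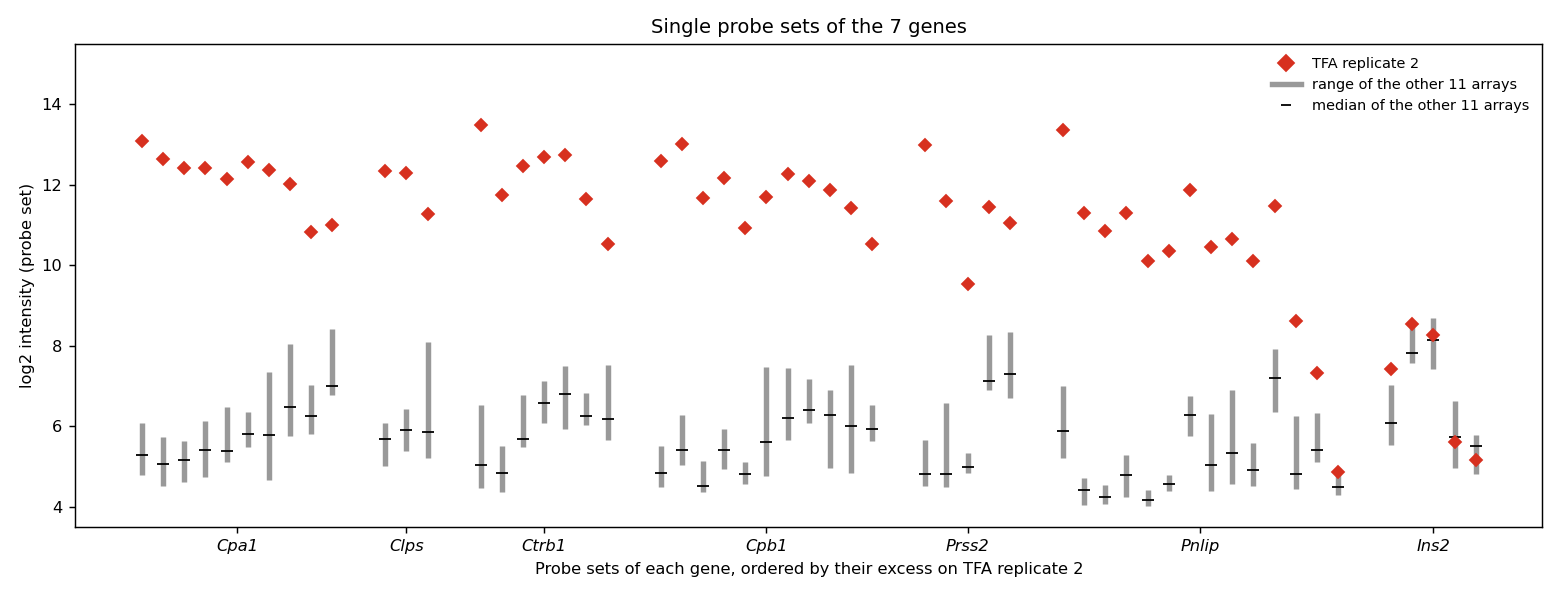
Log2 intensity (y axis) of the single probe sets of the 7 genes (50 of the digestive genes and 5 of Ins2) (x axis, grouped by gene and ordered within a gene by excess), with TFA replicate 2 as red diamonds and the range and median of the other 11 arrays as grey bars and black ticks. The diamond lies above the bar in 49 of 50 probe sets of the digestive genes and in 2 of 5 of Ins2.

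Over all genes, TFA replicate 2 was the highest array in 2724 (13.4%), by over 1 log2 unit in 84 (0.413%) and by over 2 units in 24 (0.118%). The members' 6 of 7 past 2 units is how they were chosen, and nothing is read from it. Of the 24 genes, 15 others belonged to a list of acinar enzymes and secreted proteins, and 3 to no pancreatic list. They were 2210010C04Rik (gap 5.75), a trypsin paralog that the lists left out, Gm5409 (2.57) and Ddx4, a germ cell RNA helicase (2.12). These 3 were named after their values were seen. ASP+MSG+TFA replicate 1 had 12 genes and ASP+MSG+TFA replicate 2 had 1 gene over 2 units above all other arrays, and 9 arrays had 0.

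The 10 genes with the pattern most like the members, by the size of that gap over 12 arrays, and with an informative symbol, all belonged to the acinar list. Ctrl, a chymotrypsin-like protease, had 11.61 on TFA replicate 2 and at most 6.63 on the other arrays. Cel, the bile salt-dependent carboxyl ester lipase, had 10.58 (at most 5.84), and Pnliprp1, a relative of pancreatic lipase, 10.01 (at most 5.41). Zymogen granules were represented by Zg16 at 11.26 (at most 6.92) and syncollin, Sycn, at 11.25 (at most 7.03). Reg1, a secreted lithostathine, had 10.31 (at most 6.25), the elastase Cela3b 10.12 (at most 6.30), and the mucin-like glycoprotein Dmbt1 8.87 (at most 5.15). The trypsin genes Try5 and Try4 had 10.76 (at most 7.09) and 9.66 (at most 6.56), with the same reservation as for Prss2.

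Of 33 further acinar enzymes and secreted proteins listed, 27 had probe sets of their own. TFA replicate 2 was the highest array in 22 of the 27, by over 1 unit in 17 and over 2 units in 15, and the median excess over the other 11 arrays was 3.20. Their summed linear intensity was 21803 on TFA replicate 2 and between 1423 and 8080 on the other 11 arrays. These sums include Cuzd1 and Spink1, at 8.18 and 6.53 log2 units on TFA replicate 2. Cuzd1 reached 12.18 on MSG+TFA replicate 1 and Spink1 11.37 on ASP+TFA replicate 2, arrays on which male tract genes were also high. The pancreatic amylases could not be described, since 45 probe sets named several amylase genes together and were left out. Among the genes below the top were Rnase1, the pancreatic ribonuclease, at 10.83 (at most 7.84 on the other arrays), and Pla2g1b, the pancreatic phospholipase, at 8.85 (at most 7.07), both named after their values were seen. Of the 27 genes, 17 were above the limit of dim signal on TFA replicate 2, and the 22 include genes below it. Among the genes below the limit were a pair of proteases, also named after their values were seen. Ctrc, chymotrypsin C, was at 6.54 on TFA replicate 2 and between 4.81 and 6.68 elsewhere, and Prss1 was at 5.30 (4.88 to 6.76) with 1 probe set of its own. Both lay below the limit of dim signal there (7.48), so a small excess of either would not have been detectable.

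Acinar regulators did not share the excess. Among 8 genes of acinar transcription factors and receptors, TFA replicate 2 was the highest array in 1, by 0.16 units, and the median excess was -0.05. Of the PTF1 subunits introduced above, Ptf1a was at 5.83 on TFA replicate 2 and between 5.68 and 6.27 on the other arrays, and Rbpjl at 5.75 (5.13 to 6.02). Of these 8 genes, 0 were above the limit of dim signal on TFA replicate 2 (7.48), so a small excess of these regulators would not have been detectable. Of 4 Reg3 genes, which acinar cells release in pancreatitis, Reg3d had 6.59 on TFA replicate 2 (4.91 to 5.40 elsewhere), below the limit, and the other 3 were within the range of the other arrays.

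Of the 17 islet genes measured beside Ins2, 1 was above the limit of dim signal on TFA replicate 2. This was Ppy, the pancreatic polypeptide gene, at 7.60, but it was higher on ASP+TFA replicate 2 (8.51), MSG+TFA replicate 1 (8.27) and TFA replicate 1 (7.98), and as low as 5.76 on the others. TFA replicate 2 was the highest array in 1 of 17, Gcg, the glucagon gene, at 6.62 (5.11 to 6.62 on the other arrays, a gap of 0.01). Of the next in order of gap, the islet transcription factor Nkx2-2 had 6.66 (5.17 to 6.67), the granule protein Chgb 5.82 (5.40 to 5.84) and Pdx1 5.59 (4.86 to 5.62). The median excess of 0.68 is to be set beside the receptor genes, whose median was 6.60 on TFA replicate 2 and 5.44 to 5.66 on the 8 arrays that were not raised. Of 6 duct genes TFA replicate 2 was the highest in 0, with the ductal keratin Krt19 at 7.72 (7.36 to 9.55) and Cftr, the chloride channel of duct cells, at 5.58 (5.11 to 8.25).

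Organs other than the pancreas were checked the same way. TFA replicate 2 was the highest array in 2 of 14 small intestine genes, 4 of 9 stomach genes, 1 of 6 salivary gland genes, 0 of 10 liver genes and 0 of 8 genes of lymph node and B cells, with no gene over 2 units and 1 over 1 unit. That gene was the gastric trefoil factor Tff2, at 7.07 on TFA replicate 2 and 5.30 to 6.06 elsewhere, below the limit of dim signal on TFA replicate 2. The intestinal fatty acid binding protein gene Fabp2 had 5.04 on TFA replicate 2 (4.68 to 6.15 elsewhere), the villus protein gene Vil1 6.03 (5.17 to 6.34) and the gastric gene Gkn1 6.34 (5.37 to 6.43). On TFA replicate 2, 1 of 14 small intestine genes and 0 of 9 stomach genes were above the limit of dim signal. A small excess of the rest would not have been detectable. Alb, the liver albumin gene, had 10.04 on TFA replicate 2 (7.25 to 13.33), and Cd79a of B cells 5.87 (5.00 to 6.97). Salivary Amy1 had 10.95 on TFA replicate 2 (9.78 to 10.52 elsewhere) and was bright on every array. Other probe sets named several amylase genes together, and the part of pancreatic amylase in the Amy1 signal was not tested.

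Transcripts of the male tract varied between arrays as well. TFA replicate 2 was the highest array in 0 of 9 epididymal genes, whose summed intensity was 558 on it and between 411 and 70323 on the other 11 arrays, with Crisp1, a sperm-coating protein, at 5.60 and between 5.75 and 13.85 on the other 11 arrays. It was the highest in 0 of 6 seminal vesicle genes (summed intensity 536, and 226 to 81525 on the others). Of 8 genes of mesothelium, the lining of the abdominal cavity, it was the highest in 0 (2600, and 2578 to 6586). The excess of single mesothelium genes over the median of the other arrays spanned -1.80 to 0.31. Spermatid genes ran the other way, with TFA replicate 2 the highest array in 8 of 8, by over 1 unit in 1 and over 2 units in 0, and a summed intensity of 12593 against 415 to 7948. The protamine gene Prm1 had 11.57 there and 6.53 to 10.97 elsewhere. The part of these tissues in the values of the digestive genes was not tested.

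**Figure D3:**
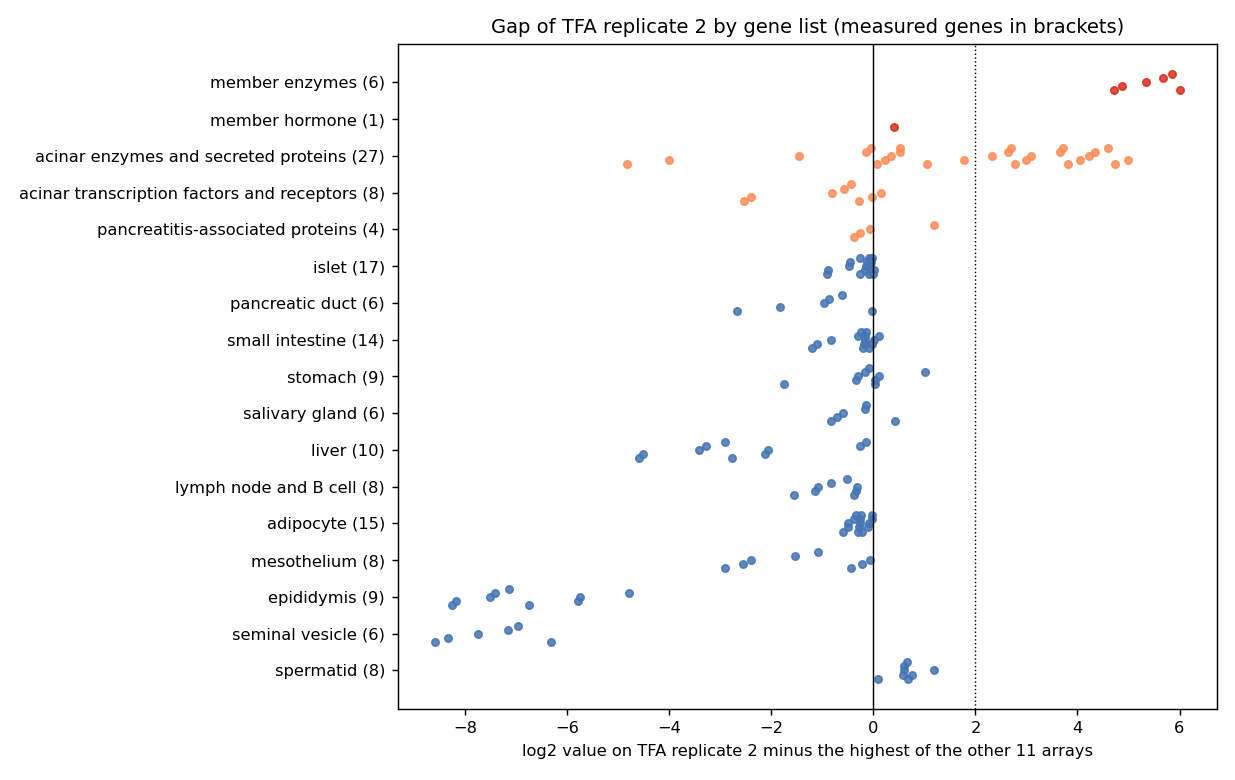
Each point is a gene of a list (rows, with the number measured), placed by its log2 value on TFA replicate 2 minus the highest value on the other 11 arrays (x axis, the solid line is 0 and the dotted line 2). Points right of the dotted line occur in the rows of the 6 member enzymes (6 of 6) and of the other acinar enzymes and secreted proteins (15 of 27) and in no other row.

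The effect of the additives was asked next, each additive diet being set against TFA in limma, a linear model fitted over all genes with p-values adjusted by Benjamini-Hochberg. Calls needed an adjusted p under 0.05 and a change of at least 1.4-fold. TFA replicate 2 is 1 of the 3 control arrays, so the TFA means of these genes hold the values given above and are a description. Cpa1 averaged 5.73 ± 0.14 in ASP+MSG+TFA, 5.61 ± 0.17 in ASP+TFA, 6.01 ± 0.44 in MSG+TFA and 8.08 ± 3.74 in TFA (SD, n = 3 each). Over the 6 digestive genes the median log2 difference from TFA was -2.50 in ASP+MSG+TFA, -2.48 in ASP+TFA and -1.97 in MSG+TFA. Of the 7 genes 0 were called in each of these comparisons, as were 0% of all genes, with 5850, 4602 and 438 genes at an unadjusted p under 0.05 in that order. These counts of members come from the array on which the genes were chosen, and nothing is read from them.

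The comparison without TFA replicate 2, with 11 arrays, leaves out the array on which the genes were chosen. These 11 arrays were the reference of that choice, so low levels on them are part of how the digestive genes were picked. The median difference of the 6 genes from TFA was then -0.54 in ASP+MSG+TFA, -0.46 in ASP+TFA and 0.04 in MSG+TFA, and again 0 of 7 genes and 0% of all genes were called (2921, 1903 and 332 at an unadjusted p under 0.05). For Cpa1 the difference from TFA was -0.20 ± 0.27 in ASP+MSG+TFA, -0.32 ± 0.27 in ASP+TFA and 0.08 ± 0.27 in MSG+TFA (SE), in place of -2.35 ± 1.33, -2.47 ± 1.33 and -2.08 ± 1.33 with all 12 arrays. Ctrb1 had the smallest unadjusted p of the digestive genes against TFA, with a difference of -0.67 ± 0.21 in ASP+TFA (adjusted p = 0.519 in limma). Prss2 differed by -0.73 ± 0.48 in ASP+MSG+TFA and by -0.84 ± 0.48 in ASP+TFA (adjusted p = 0.435 and 0.522 in limma). All these levels lay below the limit of dim signal, and the only TFA arrays left are replicates 1, a raised array, and 3.

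The Ins2 differences depended less on that array. Its difference from TFA was -0.94 ± 0.22 in ASP+MSG+TFA, -0.97 ± 0.22 in ASP+TFA and -0.32 ± 0.22 in MSG+TFA with 12 arrays, and -0.74 ± 0.22, -0.77 ± 0.22 and -0.12 ± 0.22 with 11 arrays. With 11 arrays the adjusted p in limma was 0.347, 0.519 and 1, and 9 of these 11 values were within dim signal. Ins2 differed from MSG+TFA by -0.62 ± 0.20 in ASP+MSG+TFA and by -0.65 ± 0.20 in ASP+TFA (adjusted p = 0.325 and 0.404 in limma). Both diets without aspartame held raised arrays (TFA and MSG+TFA, 2 of 3 arrays each) and both aspartame diets held 0, and the part of the dim signal in these differences was not tested. The 3 comparisons with TFA share its arrays and are not independent.

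**Figure D4:**
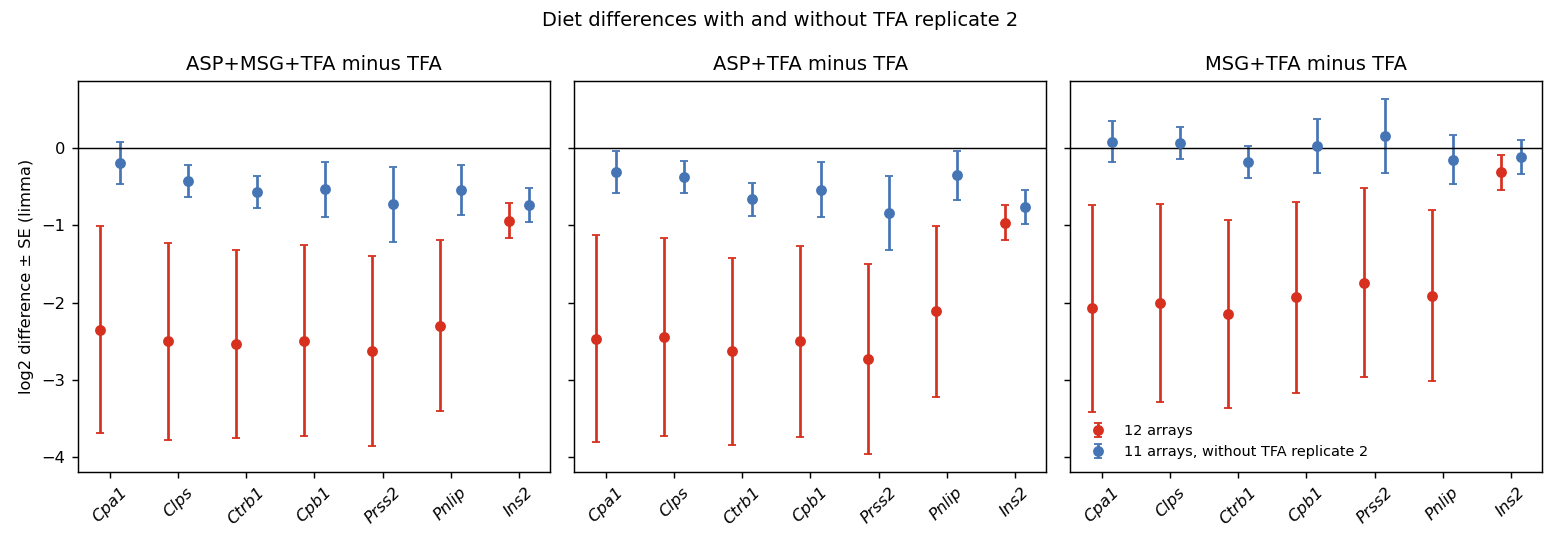
Log2 difference from TFA with its limma standard error (y axis) for each of the 7 genes (x axis) in ASP+MSG+TFA, ASP+TFA and MSG+TFA (panels), with all 12 arrays in red and without TFA replicate 2 in blue. The red points of the 6 digestive genes lie between -2.73 and -1.74 and their blue points between -0.84 and 0.15, while the Ins2 points lie close together.

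Between additive diets, which hold no part of TFA, the 6 digestive genes differed by a median of -0.44 between ASP+MSG+TFA and MSG+TFA, -0.46 between ASP+TFA and MSG+TFA and 0.05 between ASP+MSG+TFA and ASP+TFA. Again 0 of 7 genes and 0% of all genes were called in each. Clps, for example, differed by -0.49 ± 0.18 between ASP+MSG+TFA and MSG+TFA (adjusted p = 0.325 in limma), and Prss2 by -0.99 ± 0.43 between ASP+TFA and MSG+TFA (adjusted p = 0.404). All values of the digestive genes on these arrays lay below the limit of dim signal. MSG+TFA replicates 1 and 2 were raised arrays, while the aspartame diets held none. The part of the dim signal in these differences was not tested. The interaction of the additives was called for 0 of the 7 genes and 0% of all genes.

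The calls depended on how the arrays were weighted and which were kept. Those on 12 arrays hold TFA replicate 2, on which the genes were chosen, and are only described. With array quality weights in limma, all 7 genes were called between ASP+MSG+TFA and TFA and between ASP+TFA and TFA on 12 arrays, as were 37.7% and 37.4% of all genes. Without TFA replicate 2 the same weights called 6 of 7 genes between ASP+MSG+TFA and MSG+TFA, with 24.2% of all genes. Between ASP+TFA and MSG+TFA they called 4 of 7, with 25.9% of all genes. The digestive gene values there lay below the limit of dim signal, and of these diets only MSG+TFA held raised arrays. The part of the dim signal in these calls was not tested. On 12 arrays, leaving out TFA replicate 3, which keeps only raised arrays in TFA, called 6 of 7 genes in ASP+MSG+TFA and 5 of 7 in ASP+TFA, with 29.7% and 26.6% of all genes.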

How the data were processed

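RNA of mouse visceral fat was read on 12 Affymetrix Mouse Gene 1.0 ST arrays, 3 per diet, with about 250 ng of RNA each. The deposited values are linear array intensity that the authors normalised, with Partek and GCRMA (a background correction followed by quantile normalisation) named in the submitters' notes. Array medians lay between 144.9 and 150.6. The medians were thus close, but the gene values did not share a common distribution. Their interquartile range never exceeded 2.39 in a raised array and never fell below 2.95 in any other. Normalisation keeps no absolute amount of RNA, and the number of arrays limits the precision.

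Diets and replicate numbers came from the sample titles. P-values measure the spread between pools. The table held 241576 probe sets. The platform annotation named 1 gene for 212138, several for 4672 and none for 24766, and only the first were used. Symbols were updated through RefSeq (GRCm38.p6), 17626 being current, 2743 replaced and 53 kept. Each deposited intensity was turned to its log2 value, and a gene's value was the median over its probe sets.

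Differences were tested two-sided with limma 3.58.1 in R 4.3.3 (lmFit and eBayes, 1 mean per diet, 8 residual degrees of freedom with 12 arrays and 7 with 11). The limma and gap procedures were tested on simulated data. The members, the 17 gene lists and the tests were chosen with earlier results of these data known. Named genes were all members, the 8 acinar and 4 islet genes with the largest gap, genes among the first 3 measured of the other lists, and the 10 most alike genes. Ptf1a, Rbpjl and Reg3d were named outside this rule, as were Ppy, Tff2 and others marked in the text as named after their values were seen. Alternatives were the mean or the brightest probe set, the distance to the receptor median, other reference arrays, array weights, a replicate block and leaving out each array. Same-numbered TFA and MSG+TFA arrays deviated together (r = 0.593, 0.632 and 0.661). In both diets replicates 1 and 2 were raised and replicate 3 was not, and arrays of unlike number were not compared. The correlations therefore do not show that the numbers pair these diets, and no label names anything the arrays share. Adding the number as a block did not change that comparison, in which 0 genes were called.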

Additional observations from a re-analysis of the deposited data

How the results depend on the processing

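The enzyme excess on TFA replicate 2 (median 6.35 log2 units) was positive under every alternative run. It was 4.84 with the brightest probe set of each gene, 5.42 measured from the receptor median, and 5.87 against TFA replicates 1 and 3. Against the other 3 raised arrays, a choice made after seeing the data, it was 5.64. Leaving out 1 of the other arrays gave 6.34 to 6.39. The Ins2 excess (1.14) was less stable, at 0.3325 with the mean of probe sets, 0.1254 with the brightest probe set, 0.3349 from the receptor median, 0.60 against TFA replicates 1 and 3, and 0.49 against the other 3 raised arrays. Leaving out 1 array gave 1.11 to 1.19.

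Of 183 alternative counts of called genes, 172 were 0 like the main count, among them all with the raised arrays as a term (added after seeing the data). With the brightest probe set 2 genes were called in ASP+MSG+TFA and 1 in ASP+TFA. Array quality weights called 7671 genes in ASP+MSG+TFA and 7615 in ASP+TFA, and, without TFA replicate 2, 4917 between ASP+MSG+TFA and MSG+TFA and 5273 between ASP+TFA and MSG+TFA. Leaving out 1 array with 12 arrays gave 0 to 6042 in ASP+MSG+TFA and 0 to 5413 in ASP+TFA, and with 11 arrays 0 to 1055 and 0 to 2. All upper values were without TFA replicate 3. With 11 arrays this leaves 1 TFA array, assumed to vary like the others. The cause was not tested. A replicate block called 2 genes between ASP+MSG+TFA and TFA, none of them a member, and changed no other count. Outside TFA and MSG+TFA, correlations of same-numbered arrays ran from -0.549 to 0.536, and the main fits paired no diets by number. The limits are the single array on which the excess rests, the pooling of mice, the dim signal on the other arrays and its difference between raised and other arrays.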

Other observations

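Some genes of the acinar lists were high on other arrays, together with genes of the male tract. Their names were picked with the values in view. Spink1, the trypsin inhibitor of pancreatic juice, which the mouse seminal vesicle also secretes, had 6.53 on TFA replicate 2. The highest values were 11.37 in replicate 2 of ASP+TFA, 10.66 in replicate 1 of ASP+MSG+TFA and 9.75 in replicate 3 of TFA, with between 4.88 and 6.36 on the other 8 arrays. Svs5, a seminal vesicle secretory protein, reached 14.14, 14.00 and 13.90 on the same 3 arrays, and was 7.18 on TFA replicate 2. Bhlha15, a transcription factor of secretory cells, was at 6.11 on TFA replicate 2 and highest in the first 2 of those arrays (8.52 and 7.71).

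Cuzd1, a zymogen granule membrane protein, was at 8.18 on TFA replicate 2. Replicate 3 of ASP+MSG+TFA had 8.35, replicate 3 of ASP+TFA 5.70 and replicate 2 of MSG+TFA 7.67, against 10.60 to 12.18 on the other 8 arrays. Those 4 arrays were also the ones with low Crisp1 (5.60, 6.50, 5.92 and 5.75 in the same order).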
